A study of Rattus norvegicus with 20 samples.

Results

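A set of 9 genes of MHC class I antigen presentation and of the interferon response were followed in the hippocampus of neonatal Gunn rats: *B2m*, *Tap1*, *Tap2*, *Tapbp*, *Psmb8*, *Psmb9*, *Ifit2*, *Ifit3* and *Irf1*. They were taken by symbol from the deposited count table, and each of the 9 had a single entry among the 32883 genes listed. Of the 9, 7 passed the filter on low counts that left 15272 genes for testing, and *Tap2* and *Ifit3* did not. The genes were measured in 20 polyA RNA libraries, each from 1 hippocampal lobe of a pup at postnatal day 6. Gunn rats carry a mutation in *Ugt1a1*, which encodes the liver enzyme that conjugates bilirubin. The 4 groups held 5 libraries each. Light-treated jj pups were homozygous and jaundiced, and light-treated Nj pups were heterozygous and not jaundiced. Both received LED phototherapy from postnatal day 4 for 12 h in all, in alternating periods of 3 h on and 3 h off. Untreated jj pups and untreated Nj pups had the same genotypes and no phototherapy. The Nj pups are not wild type, because every Nj pup carries 1 mutant allele. The labels do not say whether pups of a group came from separate litters, so the p-values measure the spread between these pups.

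MHC class I molecules show peptides from inside the cell at its surface. The proteasome cuts proteins into peptides, and under interferon its catalytic subunits are exchanged for those encoded by *Psmb8*, *Psmb9* and *Psmb10*. The transporter formed by the products of *Tap1* and *Tap2* carries the peptides into the endoplasmic reticulum, where tapasin, from *Tapbp*, holds the transporter next to an empty class I molecule. *B2m* encodes beta-2 microglobulin, the light chain that class I heavy chains need to reach the surface. *Irf1* encodes a transcription factor induced by interferon gamma that acts on several of these genes, and *Ifit2* and *Ifit3* encode antiviral proteins that interferons induce. In mice, class I molecules and beta-2 microglobulin are also known for a part in the refinement of synapses in the developing brain.

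In RefSeq's annotation, *Tap2*, *Psmb8*, *Tap1* and *Psmb9* are neighbouring coding genes on rat chromosome 20, with *RT1-DOb* before and *RT1-DMb* after them. *Tapbp* is on the same chromosome, *Ifit2* and *Ifit3* are neighbours on chromosome 1, *B2m* is on chromosome 3 and *Irf1* on chromosome 10. The starts of *Tap1* and *Psmb9* lie 457 bases apart on opposite strands. RefSeq promoters (build GRCr8, 250 bases before the start and 50 bases after it) were given for 8 of the 9 genes, all but *Ifit2*. Those of *Tap1* and *Psmb9* share 44 bases. The 8 promoters were searched on both strands for the letters GAAANNGAAA (reverse complement TTTCNNTTTC), the core of the interferon-stimulated response element (ISRE), and for TTCNNNGAA, its own reverse complement, the interferon gamma-activated site (GAS). The matches are shown because they are the letters that interferon-activated factors are known to read. Each line below runs 5′ to 3′ on the gene's strand, with the match in capitals and up to 25 bases on either side.
B2m ISRE, chr3:129549155-129549214, plus strand: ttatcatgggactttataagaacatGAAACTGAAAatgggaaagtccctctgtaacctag
Psmb8 ISRE, chr20:4657001-4657060, minus strand: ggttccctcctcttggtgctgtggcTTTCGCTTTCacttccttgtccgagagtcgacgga
Psmb8 GAS, chr20:4657243-4657281, minus strand: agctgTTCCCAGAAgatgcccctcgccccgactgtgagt
Tap1 ISRE, chr20:4668630-4668689, minus strand: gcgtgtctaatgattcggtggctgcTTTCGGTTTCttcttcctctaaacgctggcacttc
Tap2 ISRE, chr20:4652303-4652362, minus strand: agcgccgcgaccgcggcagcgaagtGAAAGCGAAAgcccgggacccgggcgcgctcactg
Tapbp ISRE, chr20:4967863-4967928, minus strand: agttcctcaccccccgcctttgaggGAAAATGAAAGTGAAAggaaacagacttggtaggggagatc
Ifit3 ISRE, chr1:241527257-241527316, plus strand: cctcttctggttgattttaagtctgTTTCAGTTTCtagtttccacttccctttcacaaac
Irf1 GAS, chr10:38417768-38417826, plus strand: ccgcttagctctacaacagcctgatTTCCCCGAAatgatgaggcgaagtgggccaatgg

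The ISRE core was found in 6 of the 8 promoters and the GAS letters in 2 of them. Of all 33469 rat promoters of that length, 3.92% held the ISRE core and 8.87% held the GAS letters. In *Tapbp*, 2 ISRE matches overlapped and are printed as 1 run of capitals, and no ISRE match overlapped a GAS match. *Psmb8* was the only one of the 8 with both, its ISRE spanning the start from base -4 to base 5. *Psmb9* held neither run of letters in its window. The ISRE match of *Tap1*, from base -121 to base -112, lies between the starts of *Tap1* and *Psmb9* but outside the *Psmb9* window. A match is a run of letters and not a measured binding site, since no binding was measured here.

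**Figure D1:**
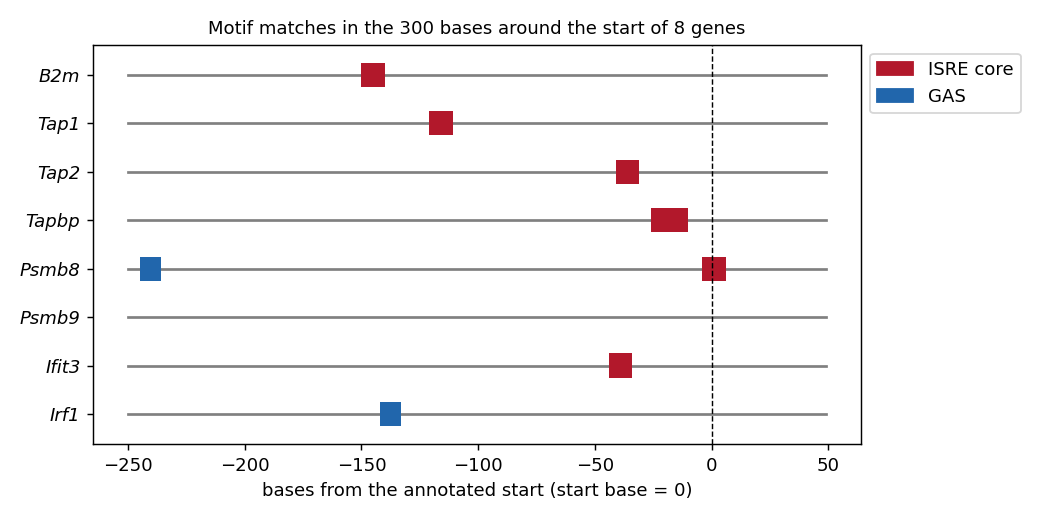
Position of the motif matches in the promoters of 8 genes, in bases from the annotated start on the x axis, 1 gene per line, with the ISRE core in red and GAS in blue. The ISRE matches sit at different distances, between base -150 in *B2m* and base 5 in *Psmb8*, and *Psmb9* shows none within its window.

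Total counts per library were 19.3 to 25.7 M (M for mega) in light-treated jj, 19.5 to 23.1 M in light-treated Nj, 16.9 to 22.1 M in untreated jj and 19.1 to 27.1 M in untreated Nj pups. All 13 listed markers of hippocampal neurons passed the filter, with summed levels between 2216 and 2576 CPM (counts per M counts, on library sizes scaled by TMM). Their sum was 2356 to 2559 CPM in light-treated Nj and 2216 to 2355 CPM in untreated Nj pups, without overlap. Of the 13 genes, 5 had a fold change above 0 in that comparison. Markers of choroid plexus, which borders the hippocampus, varied most, with summed levels between 50.9 and 10996 CPM. *Ttr*, the transthyretin gene that marks choroid plexus, passed 1000 CPM in 3 light-treated jj, 2 light-treated Nj, 1 untreated jj and 1 untreated Nj libraries, and the results were also computed without these 7. Library titles carry a prefix whose meaning the labels do not give. Both treated groups share prefix J18, untreated jj pups have J17, and untreated Nj pups have J13, J14 and J15, so that prefix cannot be told apart from light, from jaundice without light, or from the difference in the light effect between genotypes. In these bulk samples, more cells of a type and more RNA per cell cannot be told apart either.

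With light in pups without jaundice, *B2m* and *Ifit2* rose. *B2m* was 1.18-fold and *Ifit2* 1.30-fold as high in light-treated Nj as in untreated Nj pups, and for both genes the lowest treated pup lay above the highest untreated pup. *Psmb8* had the largest fold change of the 7, 1.94-fold, and did not pass the test. *Tap1*, *Tapbp*, *Psmb9* and *Irf1* gave no difference beyond the spread between pups. By edgeR's quasi-likelihood test, with p-values adjusted after Benjamini and Hochberg over all 15272 genes and a threshold of 0.05, 2 of the 7 genes tested were called, both higher, while 4.00% of all genes were called in this comparison and 1.49% were called higher.

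*B2m* (ENSRNOG00000017123) had 239, 251, 242, 248 and 274 CPM in light-treated Nj pups, against 231, 229.6, 206, 195 and 203 CPM in untreated Nj pups. Every treated pup lay above every untreated pup, as in 3.07% of all genes here. *B2m* averaged 251 ± 13.9 CPM in light-treated Nj and 213 ± 16.2 CPM in untreated Nj pups (SD, n = 5 each). The log2 fold change was 0.24 (SE 0.05, 95% interval 0.14 to 0.34, adjusted p = 0.00925 by edgeR's quasi-likelihood test), which ranked *B2m* 80 among all genes by p. The untreated Nj libraries with prefixes J13 and J14, at 231 and 229.6 CPM, were the 2 highest of their group, and the 3 of prefix J15 lay between 195 and 206 CPM. Against the 3 J15 libraries alone, the log2 fold change was 0.32. *B2m* was called whichever of the 10 pups was left out, with edgeR's adjusted p between 0.00365 and 0.0410. It was not called without the 7 libraries rich in *Ttr*, where the log2 fold change was 0.18 and edgeR's adjusted p was 0.110.

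*Ifit2* (ENSRNOG00000036604) had 6.61, 7.09, 6.77, 6.90 and 7.74 CPM in light-treated Nj pups, against 6.23, 5.17, 5.61, 5.04 and 4.90 CPM in untreated Nj pups. Every treated pup lay above every untreated pup, by the narrow gap between 6.61 and 6.23 CPM. The mean level was 7.02 ± 0.44 CPM in light-treated Nj and 5.39 ± 0.54 CPM in untreated Nj pups (SD, n = 5 each). The log2 fold change was 0.38 (SE 0.10, 95% interval 0.16 to 0.60, adjusted p = 0.0423 by edgeR's quasi-likelihood test). The call was close to the threshold. It was kept in 1 of the 10 fits that each left out 1 pup, the one without untreated Nj pup 1 (adjusted p = 0.0284, edgeR), and lost in the other 9, with adjusted p up to 0.123 and log2 fold changes from 0.34 to 0.44. Without the libraries rich in *Ttr* the log2 fold change was 0.34 and edgeR's adjusted p was 0.178.

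*Psmb8* (ENSRNOG00000000456), the immunoproteasome subunit that takes the place of the one encoded by *Psmb5*, was sparsely counted, with 4 to 28 reads per library over all 20. It had 0.83, 1.06, 0.93, 0.80 and 1.20 CPM in light-treated Nj pups, against 0.52, 0.43, 0.85, 0.52 and 0.17 CPM in untreated Nj pups. The groups overlapped through untreated Nj pup 3 at 0.85 CPM, which is the 1 untreated Nj library rich in *Ttr*. The log2 fold change was 0.95 (SE 0.31, 95% interval 0.31 to 1.59), and the adjusted p of 0.0840 by edgeR's quasi-likelihood test missed the threshold. Without untreated Nj pup 3 the log2 fold change was 1.22 and *Psmb8* was called (adjusted p = 0.0380, edgeR), but it was not called in the other 9 fits that left out 1 pup, down to a log2 fold change of 0.74 without untreated Nj pup 5 and with edgeR's adjusted p up to 0.217. It was called under none of 6 other alternatives.

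The other immunoproteasome gene of the 9, *Psmb9* (ENSRNOG00000000459), had 1.33 to 2.65 CPM in light-treated Nj and 1.78 to 2.50 CPM in untreated Nj pups. Its log2 fold change was -0.15 (SE 0.20). *Tap1* (ENSRNOG00000000457), a subunit of the peptide transporter, had 4.05 to 5.35 CPM in light-treated Nj and 3.49 to 5.37 CPM in untreated Nj pups, with a log2 fold change of 0.05 (SE 0.15). *Tapbp* (ENSRNOG00000029500) had 8.08 to 10.4 CPM in light-treated Nj and 8.54 to 11.2 CPM in untreated Nj pups, with a log2 fold change of -0.11 (SE 0.14). All 3 pairs of groups overlapped. *Irf1* (ENSRNOG00000008144) had 3.30 to 4.30 CPM in light-treated Nj and 3.10 to 4.03 CPM in untreated Nj pups, with a log2 fold change of 0.07 (SE 0.16, 95% interval -0.26 to 0.39). Adjusted p was between 0.756 and 0.912 for these 4 genes by edgeR's quasi-likelihood test. Over the 7 genes tested, 5 fold changes were above 0 and 2 below, with 50.3% above 0 over all genes. *B2m*, *Ifit2* and *Psmb8* were the 3 with an unadjusted p under 0.05, as 18.1% of all genes had. The median log2 fold change of the 7 was 0.07, beside 0.00 over all genes.

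**Figure D2:**
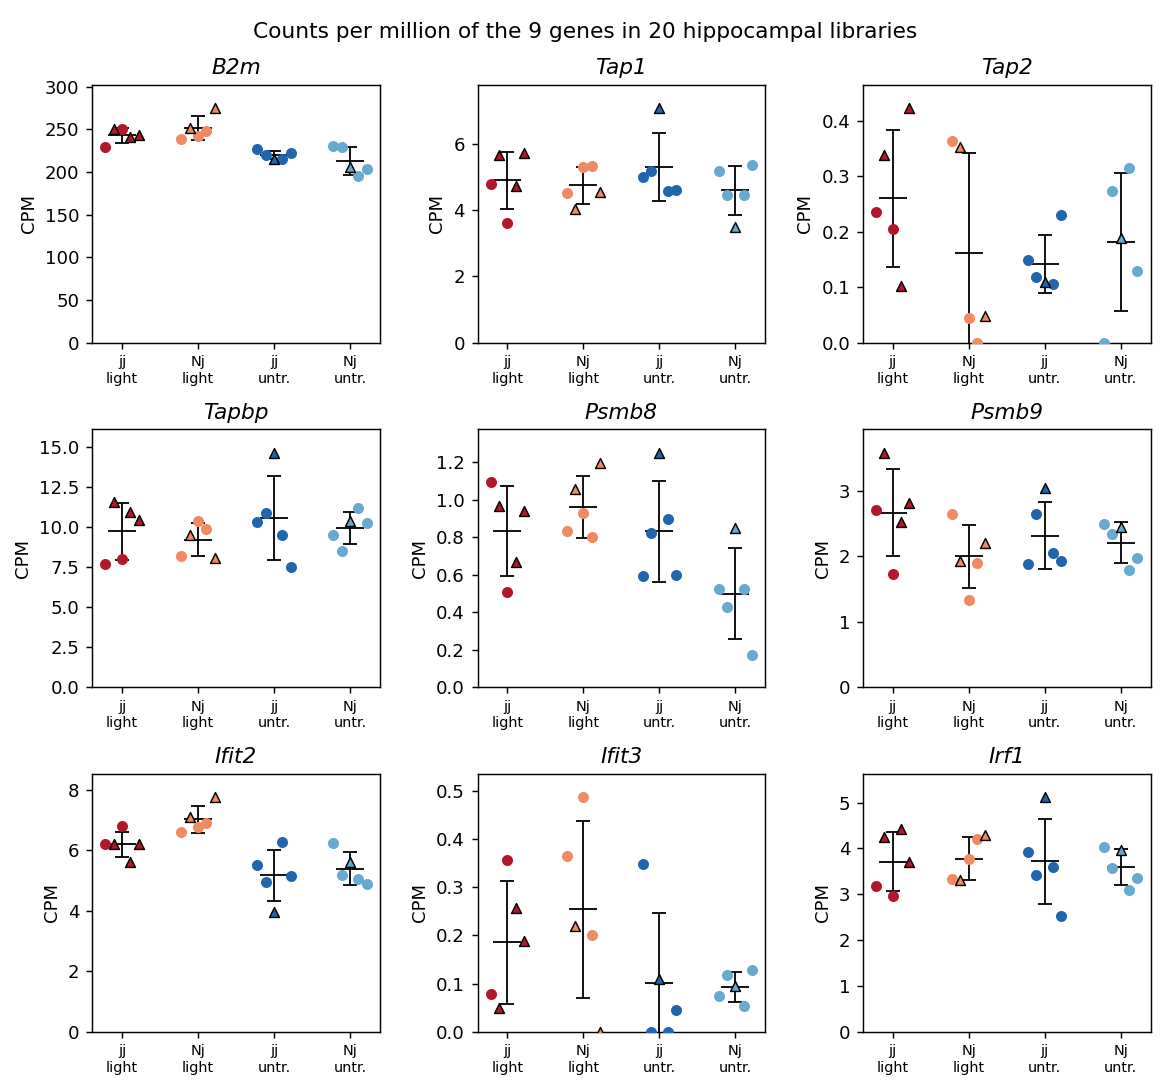
CPM of each of the 9 genes (y axis, starting at 0) in the 4 groups (x axis), 1 point per library, with the mean and SD of 5 libraries in black (bars that reach below 0 are cut at 0). Triangles mark the 7 libraries above 1000 CPM of *Ttr*. *B2m* and *Ifit2* are higher in light-treated Nj pups than in untreated Nj pups with no overlap, and the triangle of untreated jj pup 3 is the highest of its group for *Tap1*, *Tapbp*, *Psmb8*, *Psmb9* and *Irf1*.

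Light in the jaundiced pups gave fold changes above 0 for *B2m* and *Ifit2* that did not pass the test. None of the 7 genes was called by edgeR's quasi-likelihood test or by DESeq2, while 0.164% of all genes were called by edgeR. Of the 7, the 2 genes *B2m* and *Ifit2* had an unadjusted p under 0.05, as had 13.0% of all genes. *B2m* had 229, 251, 250.2, 241 and 243 CPM in light-treated jj pups, against 227, 220.0, 215, 215 and 222 CPM in untreated jj pups. Every treated pup lay above every untreated pup, as in 1.27% of all genes in this comparison. The mean was 243 ± 8.64 CPM in light-treated jj and 219.7 ± 4.86 CPM in untreated jj pups (SD, n = 5 each), a log2 fold change of 0.14 (SE 0.05, 95% interval 0.05 to 0.24, adjusted p = 0.184 by edgeR).

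*Ifit2* had 6.19, 6.20, 6.79, 5.60 and 6.19 CPM in light-treated jj pups, against 5.51, 4.95, 3.97, 6.27 and 5.16 CPM in untreated jj pups. The groups overlapped through untreated jj pup 4 at 6.27 CPM, and the log2 fold change was 0.26 (SE 0.11, adjusted p = 0.299 by edgeR). *Psmb8* averaged 0.84 ± 0.24 CPM in light-treated jj and 0.83 ± 0.27 CPM in untreated jj pups (SD, n = 5 each), a log2 fold change of 0.03 (SE 0.30). *Psmb9* had a log2 fold change of 0.21 (SE 0.20), *Tap1* of -0.11 (SE 0.15), *Tapbp* of -0.12 (SE 0.14) and *Irf1* of -0.00 (SE 0.16). For these 5 genes edgeR's adjusted p was between 0.687 and 0.995, and the signs of *Tap1*, *Tapbp* and *Irf1* turned without untreated jj pup 3. The median log2 fold change of the 7 was 0.03, beside -0.00 over all genes.

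Whether light acted differently in jj and Nj pups was tested as the difference between these 2 fold changes. None of the 7 genes was called by edgeR's quasi-likelihood test or by DESeq2, nor was any gene of all tested (0%), and 3.41% of all genes had an unadjusted p under 0.05. For *B2m* the light effect in jj pups minus that in Nj pups was -0.09 on the log2 scale (SE 0.07, 95% interval -0.23 to 0.05). For *Ifit2* it was -0.12 (SE 0.15, 95% interval -0.43 to 0.19). *Psmb8* was the 1 gene of the 7 with an unadjusted p under 0.05, with a difference of -0.93 (SE 0.43, 95% interval -1.82 to -0.03) and an adjusted p of 1.00 by edgeR. A call for *B2m* or *Ifit2* in Nj pups and none in jj pups is therefore no evidence of a difference between the genotypes.

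Jaundice without light left the 7 genes without a call. None passed by edgeR's quasi-likelihood test or by DESeq2, and edgeR called 0% of all genes. *Psmb8* had 0.60, 0.83, 1.25, 0.90 and 0.60 CPM in untreated jj pups, against 0.52, 0.43, 0.85, 0.52 and 0.17 CPM in untreated Nj pups. The groups overlapped, and the mean was 0.83 ± 0.27 CPM in untreated jj and 0.50 ± 0.24 CPM in untreated Nj pups (SD, n = 5 each). The log2 fold change was 0.73 (SE 0.32, 95% interval 0.08 to 1.39, adjusted p = 0.775 by edgeR), and it was the 1 gene of the 7 with an unadjusted p under 0.05, as 6.36% of all genes had. The untreated Nj group was the lowest of the 4 for *Psmb8*, and it is shared by this comparison and that of light in Nj pups. *Tap1* had 5.02, 5.19, 7.07, 4.59 and 4.61 CPM in untreated jj pups, against 3.49 to 5.37 CPM in untreated Nj pups, with a log2 fold change of 0.20 (SE 0.15). *B2m* had a log2 fold change of 0.05 (SE 0.05, 95% interval -0.05 to 0.14), *Tapbp* of 0.09 (SE 0.14), *Psmb9* of 0.06 (SE 0.20), *Irf1* of 0.04 (SE 0.16) and *Ifit2* of -0.06 (SE 0.11). The signs of *Tapbp*, *Psmb9*, *Irf1* and *Ifit2* turned without untreated jj pup 3.

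Jaundice among light-treated pups also gave no call among the 7 by edgeR's quasi-likelihood test or by DESeq2, with 0% of all genes called by edgeR. *Psmb9* had 2.70, 3.58, 1.74, 2.52 and 2.82 CPM in light-treated jj pups, against 2.65, 1.94, 1.33, 1.90 and 2.20 CPM in light-treated Nj pups. The ranges overlapped, with 2.67 ± 0.66 CPM in light-treated jj and 2.00 ± 0.48 CPM in light-treated Nj pups (SD, n = 5 each). The log2 fold change of 0.42 (SE 0.20, 95% interval 0.01 to 0.83) had an adjusted p of 0.724 by edgeR and an unadjusted p under 0.05, as 6.62% of all genes had. Without the libraries rich in *Ttr* it was 0.20. *Ifit2* averaged 6.19 ± 0.42 CPM in light-treated jj and 7.02 ± 0.44 CPM in light-treated Nj pups, a log2 fold change of -0.18 (SE 0.10, adjusted p = 0.724 by edgeR). *Psmb8* had a log2 fold change of -0.19 (SE 0.29), *Tapbp* of 0.08 (SE 0.14), *Tap1* and *B2m* of 0.05 (SE 0.15) and -0.05 (SE 0.05), and *Irf1* of -0.03 (SE 0.16).

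**Figure D3:**
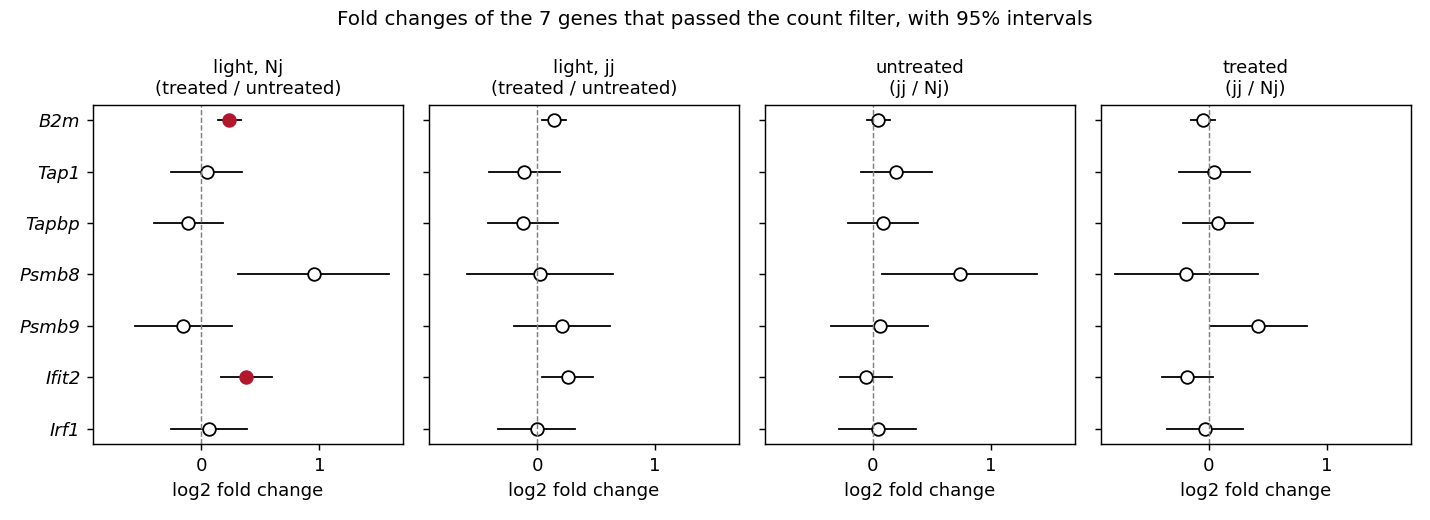
Log2 fold change (x axis) of the 7 genes that passed the count filter (y axis) in 4 comparisons, with 95% intervals as lines, from edgeR's quasi-likelihood fit to 20 libraries. Filled points passed an adjusted p of 0.05, which *B2m* at 0.24 and *Ifit2* at 0.38 did for light in Nj pups. The intervals of *Psmb8* are the widest.

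*Tap2* (ENSRNOG00000000455), the other subunit of the peptide transporter, had 0 to 9 reads per library and 28 in all in light-treated jj, 17 in light-treated Nj, 14 in untreated jj and 20 in untreated Nj pups. *Ifit3* (ENSRNOG00000022839) had 0 to 11 reads per library and 19 in all in light-treated jj, 27 in light-treated Nj, 10 in untreated jj and 11 in untreated Nj pups. A count of 0 allows up to 3 reads in a library, for counting error only. Neither gene passed the count filter. In the fit without that filter neither was called in any of the 5 comparisons, and the intervals were wide. With light in Nj pups the log2 fold change there was 1.37 for *Ifit3* (95% interval -0.12 to 2.87, adjusted p = 0.426 by edgeR) and -0.13 for *Tap2* (95% interval -1.54 to 1.28). *Ifit3* had 7, 5, 11, 4 and 0 reads in light-treated Nj pups, against 2, 3, 2, 1 and 3 reads in untreated Nj pups, so that the 5 treated pups hold both the highest and the lowest count. Reads may be split between near-identical copies of the *Ifit* family, and the sources used here do not give how such reads were counted, or whether strand was used.

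The rest of the class I pathway was read from lists of other genes. Of 24 tested genes of peptide supply and class I loading, 1 was called higher and 0 lower with light in Nj pups, by edgeR's quasi-likelihood test with adjustment over all genes. Over all genes, 4.00% were called there and 1.49% were called higher. That gene was *Rfx5*, a subunit of the complex that binds class I and class II promoters, with 28.8 ± 1.52 CPM in light-treated Nj and 24.4 ± 1.42 CPM in untreated Nj pups (SD, n = 5 each, log2 fold change 0.24, adjusted p = 0.0239). The median log2 fold change of the list was 0.02, beside 0.00 over all genes. *Calr*, *Canx* and *Pdia3*, which encode chaperones of class I folding and loading, had log2 fold changes of -0.03, 0.04 and 0.01. *Erap1*, which encodes the peptidase that trims peptides in the endoplasmic reticulum, had 0.18 (edgeR's adjusted p = 0.522), and *Nlrc5*, the class I transactivator gene, had 0.10.

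*Psmb10*, the third inducible catalytic subunit gene, had 15.2 ± 1.01 CPM in light-treated Nj and 14.2 ± 0.31 CPM in untreated Nj pups (SD, n = 5 each), a log2 fold change of 0.10 that was not called (adjusted p = 0.470 by edgeR). The constitutive subunits that the 3 inducible ones replace were *Psmb5* at -0.05, *Psmb6* at -0.07 and *Psmb7* at 0.10 on the log2 scale. None of the 7 constitutive beta subunits was called by edgeR or by DESeq2. Of the 7, 2 had an unadjusted p under 0.05, beside 18.1% of all genes.

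Of the 21 class I heavy chain genes in the table, 13 were tested and none was called with light in Nj pups by edgeR or by DESeq2. An unadjusted p under 0.05 was found for 1 of the 13, beside 18.1% of all genes. Of the 13 fold changes, 8 were above 0, and the median log2 fold change was 0.05. *RT1-A2*, named after its values were seen, is a classical heavy chain gene. It had 2.37 ± 0.18 CPM in light-treated jj, 1.71 ± 0.15 CPM in light-treated Nj, 1.73 ± 0.20 CPM in untreated jj and 1.72 ± 0.21 CPM in untreated Nj pups (SD, n = 5 each). Light-treated jj pups stood highest, at a log2 fold change of 0.45 (SE 0.14) against untreated jj and 0.46 (SE 0.14) against light-treated Nj pups, and neither was called by edgeR (adjusted p = 0.148 and 0.724). Some class I *RT1* genes are near-identical copies, so reads of the heavy chain genes are uncertain.

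Interferon transcripts were scarce in all 4 groups. Of 16 listed genes for interferons and the cytokines that act with them, 8 had 0 reads in all 20 libraries, among them *Ifnb1*, *Ifna2* and *Ifna4*. *Ifng*, which encodes interferon gamma, had 7 reads in the 20 libraries together and never more than 2 in a library. Of 54 tested interferon-stimulated genes other than the 9, none was called with light in Nj pups by edgeR or by DESeq2. An unadjusted p under 0.05 was found for 5 of the 54, beside 18.1% of all genes. A fold change above 0 was found for 35, beside 50.3% of all genes, with a median log2 fold change of 0.06. *Ifit1* had 1.53 ± 0.33 CPM in light-treated Nj and 1.47 ± 0.43 CPM in untreated Nj pups (log2 fold change 0.05). *Isg15* had 0.34 ± 0.20 CPM in light-treated Nj and 0.38 ± 0.19 CPM in untreated Nj pups (log2 fold change -0.21, SD, n = 5 each).

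Among 22 tested genes of interferon receptors and their signalling, *Stat3*, which encodes a factor used by many cytokine receptors, fell to 53.4 ± 2.18 CPM in light-treated Nj pups, against 59.1 ± 1.89 CPM in untreated Nj pups (SD, n = 5 each, log2 fold change -0.15, adjusted p = 0.0442 by edgeR). That call was kept in 2 of 10 fits that left out 1 pup and under 3 of 7 other alternatives, with adjusted p up to 0.167. *Stat3* was the 1 gene called of the 22, beside 4.00% of all genes. *Stat2* and *Irf9*, whose products are parts of an interferon-activated transcription complex, had log2 fold changes of -0.04 and -0.06. None of 11 tested genes of interferon regulatory factors and their partners was called by edgeR, and *Irf7* stood at 0.00, whereas DESeq2 called 2 of the 11. In edgeR's fit 6 of the 11 had a fold change above 0, and 4 had an unadjusted p under 0.05, beside 18.1% of all genes. All 4, named after their values were seen, were lower with light: *Irf4* at -0.87, *Irf2bp1* at -0.23, *Irf2bpl* at -0.21 and *Irf2bp2* at -0.20. With light in jj pups, neither edgeR nor DESeq2 called any of the 13 heavy chain genes or the 54 interferon-stimulated genes, with 1 of each list at an unadjusted p under 0.05. The median log2 fold change there was -0.09 over the heavy chain genes and 0.02 over the interferon-stimulated genes. For jaundice without light, again with no call in either list by edgeR or DESeq2 and 0 and 1 genes at an unadjusted p under 0.05, the medians were 0.15 and 0.12. For jaundice among light-treated pups, edgeR called none of the 13 heavy chain genes, and 8 had a fold change above 0, with a median of 0.12. An unadjusted p under 0.05 was found there for 4 of the 13, beside 6.62% of all genes.

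**Figure D4:**
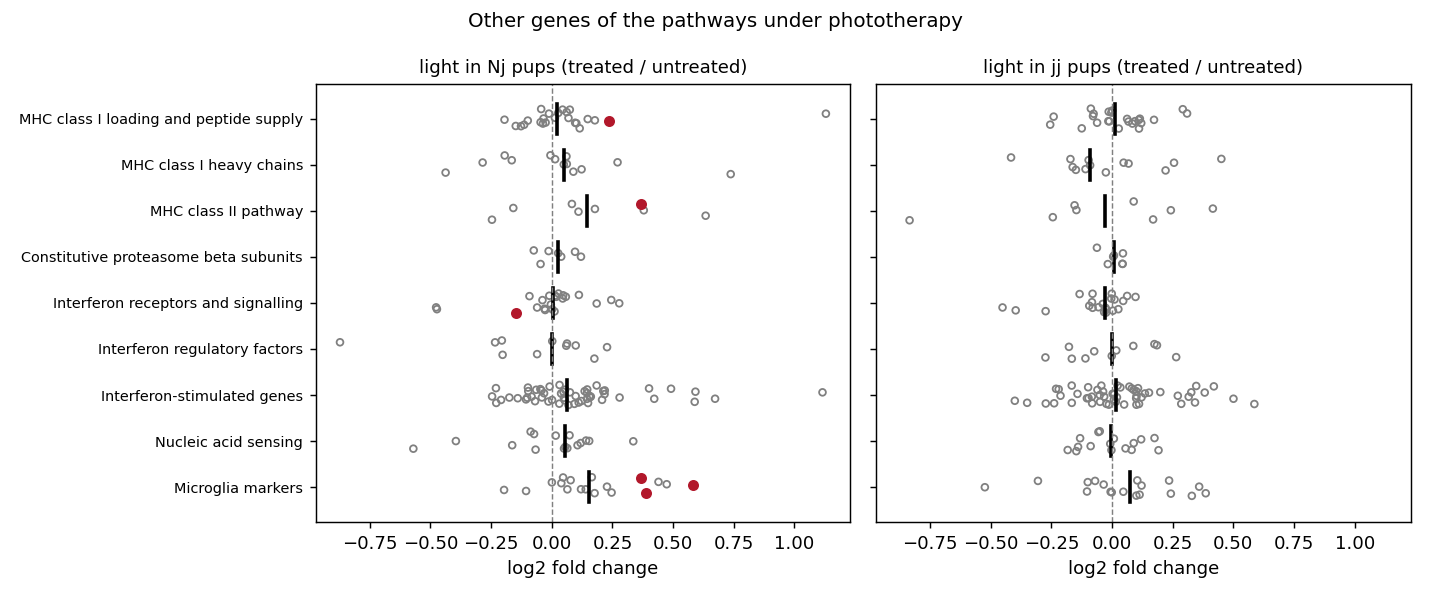
Log2 fold changes (x axis) with light in Nj pups (left) and in jj pups (right) of genes from 9 lists (y axis), none of them among the 9 genes described. Each point is a gene, the black bar is the median of the list, and filled red points passed an adjusted p of 0.05 in edgeR's fit. *Ctss* is drawn in both the class II list and the microglia list, and no point is filled for light in jj pups.

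Microglia, the brain's resident macrophages, express *B2m* and class I genes, and some of their markers rose in the same comparison as *B2m*. With light in Nj pups, 3 of 18 tested microglia markers rose, where 1.49% of all genes were called higher, and 16 of 18 had a fold change above 0, as 50.3% of all genes had. The median log2 fold change was 0.15. *P2ry12*, a purinergic receptor gene of microglia, had 11.3 ± 0.59 CPM in light-treated Nj and 7.53 ± 1.20 CPM in untreated Nj pups (SD, n = 5 each, log2 fold change 0.58, adjusted p = 0.00267 by edgeR). *Ctss*, which encodes the lysosomal protease cathepsin S and is also in the class II list, had a log2 fold change of 0.37 (adjusted p = 0.0280, edgeR), and *Aif1* had 0.39 (adjusted p = 0.0486, edgeR). *P2ry12* was called whichever pup was left out, *Ctss* in 4 and *Aif1* in 3 of those 10 fits. Without the libraries rich in *Ttr*, *Ctss* and *Aif1* were not called (adjusted p = 0.220 and 0.273, edgeR). The summed level of the list was 198 to 232 CPM in light-treated Nj and 187 to 203 CPM in untreated Nj pups, and the ranges overlapped. Its median was lowest in untreated Nj pups, at 188 CPM, against 223 CPM in light-treated Nj, 223 CPM in untreated jj and 233 CPM in light-treated jj pups. For jaundice without light, 15 of the 18 also had a fold change above 0, with a median log2 fold change of 0.21. There 7 had an unadjusted p under 0.05, beside 6.36% of all genes, and none was called by edgeR. *B2m* had a log2 fold change of 0.05 in that comparison. None of the 19 markers in the table was at 0 in all libraries.

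In light-treated jj pups the summed level of microglia markers was 209 to 249.7 CPM, against 187 to 228 CPM in untreated jj pups. Of the 18, 10 had a fold change above 0 there, with a median log2 fold change of 0.07, and none was called by edgeR. An unadjusted p under 0.05 was found for 5, beside 13.0% of all genes in that comparison. *Lyz2*, a lysozyme gene of monocytes and macrophages, was the 1 called of 9 tested markers of border macrophages and monocytes with light in Nj pups (log2 fold change 0.50, adjusted p = 0.0165 by edgeR). Of the other 8, 4 had a fold change above 0 and 4, *Pf4*, *F13a1*, *Cd14* and *Mrc1*, had one below 0, between -0.35 and -0.14 on the log2 scale, and none of these was called. The *Lyz2* call was kept in 7 of 10 fits that left out 1 pup and was lost without the libraries rich in *Ttr* (adjusted p = 0.0723, edgeR). The share called over all genes in that comparison was 4.00%. *Lyz2* averaged 10.1 CPM in light-treated Nj, 7.12 CPM in untreated Nj, 10.3 CPM in light-treated jj and 9.04 CPM in untreated jj pups. Untreated Nj pups were thus its lowest group, and for jaundice without light its log2 fold change was 0.34, not called. The summed level of that list was 38.0 to 69.4 CPM in light-treated Nj and 36.5 to 57.7 CPM in untreated Nj pups. *Cd3d*, *Cd3e* and *Cd3g*, which mark T cells, had 5, 19 and 4 reads in the 20 libraries together, and *Gzmb* had 0. Of 16 lymphocyte markers listed, 3 passed the filter, and the summed level of that list was at most 22.1 CPM in any library. Other marker lists had fold changes mostly on 1 side with light in Nj pups, without a call by edgeR. Of 9 tested ependyma markers and 7 tested red cell markers, 0 had a fold change above 0, with median log2 fold changes of -0.15 and -0.37. All 14 tested choroid plexus markers had a fold change above 0, with a median of 0.40. All 14 were also above 0 for jaundice without light and for light in jj pups. An unadjusted p under 0.05 with light in Nj pups was found for 1 ependyma, 1 red cell and 0 choroid plexus markers, beside 18.1% of all genes. The part of these cell types in the change of *B2m* and *Ifit2* was not tested.

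Variation among pups of a group was compared between the 7 genes after the group means of log2 CPM had been subtracted. Of 21 pairs, 13 had a positive Pearson's r and none passed Benjamini-Hochberg adjustment of a 2-sided permutation test within groups (100000 permutations, lowest adjusted p = 0.122). *Tapbp* and *Irf1* gave r = 0.70 and Spearman's rho = 0.58 over 20 pups (permutation p = 0.0105 and 0.0286, adjusted p = 0.122 and 0.160), and r = 0.42 without untreated jj pups 3 and 5. *Tap1* and *Tapbp* gave r = 0.60 and rho = 0.53 (permutation p = 0.0175 and 0.0344, adjusted p = 0.122 and 0.160), and r = 0.29 without untreated jj pup 3 and light-treated jj pup 3. These relations thus rested in part on single libraries.

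*Psmb8* and *Psmb9* gave r = 0.54 and rho = 0.57 (permutation p = 0.0147 and 0.0192, adjusted p = 0.122 and 0.160), and r = 0.58 without the 2 pups farthest from the median of *Psmb8*. *B2m* and *Ifit2*, the pair that rose with light in Nj pups, gave r = 0.44 and rho = 0.55 within groups (permutation p = 0.0288 and 0.0211, adjusted p = 0.145 and 0.160), and r = 0.20 without untreated Nj pup 1 and light-treated Nj pup 5. *Ifit2* varied in the other direction from *Tapbp*, at r = -0.55, and from *Tap1*, at r = -0.52, and neither passed adjustment. Without the libraries rich in *Ttr* these values were -0.05 and -0.13 over 13 pups. *Tapbp* with *Ifit2* gave r = -0.43 without untreated jj pups 3 and 5, and *Tap1* with *Ifit2* gave -0.11 without untreated jj pup 3 and light-treated jj pup 3. *B2m* gave r = -0.03 with *Tap1* and -0.26 with *Tapbp*.

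**Figure D5:**
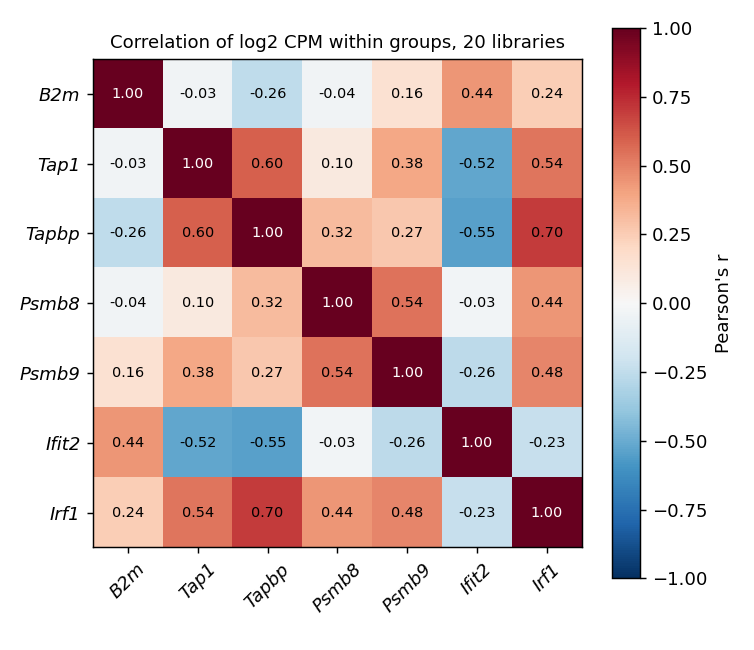
Pearson's r between the log2 CPM of the 7 tested genes, as a matrix coloured from -1 to 1, over 20 libraries after subtraction of group means. The highest value off the diagonal is 0.70, for *Tapbp* and *Irf1*, and *Ifit2* has negative values with every gene except *B2m* (without the libraries rich in *Ttr*, also positive with *Irf1*, at 0.52, and *Psmb8*, at 0.21).

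The 7 genes were also set against the summed levels of 9 lists of cell type markers within groups, 63 relations in all, chosen after the values were seen. By Pearson's r, 8 passed adjustment, each at an adjusted permutation p of 0.0491, and by Spearman's rho none did (lowest adjusted permutation p = 0.0554). Of the 8, 6 were of *Irf1*, with r = 0.76 for red cells, 0.71 for meninges, 0.69 for microglia, 0.66 for choroid plexus, 0.64 for endothelium and -0.72 for hippocampal neurons. The others were *Tapbp* with meninges at r = 0.70 and *Psmb8* with choroid plexus at r = 0.64. Without the 7 libraries rich in *Ttr*, none of the 63 passed over the 13 that were left, and fewer pups also weaken the test. Over those 13, *Irf1* gave r = 0.80 for endothelium, 0.79 for microglia, 0.79 for red cells and 0.67 for meninges. For choroid plexus *Irf1* gave 0.40 and for hippocampal neurons -0.44. *Tapbp* with meninges gave 0.73 and *Psmb8* with choroid plexus 0.33. *B2m* gave r = 0.45 and rho = 0.48 with the microglia markers (adjusted permutation p = 0.127 and 0.198), and r = 0.36 without untreated Nj pup 1 and light-treated Nj pup 5.

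The mean z-score of log2 CPM of the 7 genes gave 1 value per library. It was lowest in untreated jj pup 5 at -0.94 and highest in light-treated jj pup 2 at 1.01, so the jj pups spanned the whole range. Outside the 9, the 3 named genes whose log2 CPM was most like this mean over the 20 libraries were *Prodh1* (r = 0.87, rho = 0.78), *Anxa11* (r = 0.85, rho = 0.79) and *Acadm* (r = 0.85, rho = 0.83). These values are a description over libraries that share tissue composition and group, and carry no p.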

How the data were processed

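PolyA RNA of hippocampus from 20 Gunn rat pups was analysed, 5 per group, grouped by the labels' genotype and treatment. The authors deposited 1 table of raw read counts per gene without normalisation. Per the submitters' processing notes, FastQC, TopHat2 2.0.13, Subread and edgeR were used, and mm10 is named although the identifiers are rat genes; a rat build is not named there. Every row named a gene.

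Counts were filtered with filterByExpr by group, which left 15272 genes, scaled by TMM, and modelled for the 20 libraries together by quasi-likelihood with a mean per group and robust dispersion (edgeR 4.0.16, limma 3.58.1, R 4.3.3). Contrasts were tested 2-sided, p-values were adjusted after Benjamini and Hochberg over all genes, and 0.05 was the threshold. Called means past that threshold. Library totals of 16.9 to 27.1 M (M for mega) limit precision for genes with few reads, and fold intervals are 95%. Correlations used log2 CPM with 0.5 added.

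Alternatives were size factors of DESeq2, DESeq2 1.42.0 itself, no filter on counts, a filter at a mean count of 10, the compared groups alone, untreated Nj pups of prefix J15 alone, no library above 1000 CPM of *Ttr*, and leaving out each pup. The members and the 19 gene lists were chosen with earlier results of these data known. Named were the 9 genes, up to 4 called genes per list and contrast, 15 fixed pathway genes and the 3 genes most like the 9, and *RT1-A2* was added after its values were seen. A gene that the rule names is left out of the text, and counts still include it. Promoter sequences and gene order come from RefSeq (GRCr8).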

Additional observations from a re-analysis of the deposited data

Results flagged for a closer look

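*Tap1* in untreated jj pup 3 stood apart from its group at 7.07 CPM, with the next highest untreated jj pup at 5.19 CPM. The gap to that pup was 0.759 of the range of the group, above Dixon's critical value of 0.71 for 5 samples. It was the 1 such value among 36 groups of 5 looked at (9 genes in 4 groups). Chance alone flags about 1 in 20 groups, so 1 flag among 36 is not more than chance gives. That library is also the highest of all 20 in *Ttr*, at 9662 CPM, and the highest of its group for *Tapbp*, *Psmb8*, *Psmb9* and *Irf1*. The part of choroid plexus tissue in the level of *Tap1* was not tested.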

How the results depend on the processing

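*B2m* with light in Nj pups kept its direction under 7 alternatives and was called in 6 (log2 fold change 0.18 to 0.32), the exception being the fit without the libraries rich in *Ttr*. *Ifit2* kept its direction in all 7 (0.34 to 0.44) and was called in 5, not without a count filter and not without those libraries. The calls of the other genes with light in Nj pups were kept in 10 of 10 fits leaving out 1 pup for *P2ry12*, 7 for *Rfx5* (lost without treated Nj pup 4 or untreated Nj pup 4 or 5, adjusted p up to 0.0746, edgeR) and *Lyz2* (lost without treated Nj pup 5 or untreated Nj pup 4 or 5, up to 0.0630), 4 for *Ctss* (up to 0.0882), 3 for *Aif1* (up to 0.137) and 2 for *Stat3* (up to 0.131). Of the 9 genes, 2 were called there, 1 without a filter, 0 without *Ttr*-rich libraries, and 1 to 2 when a pup was left out. No paired analysis was possible because the labels carry no replicate number shared across groups. Depth limits *Tap2*, *Ifit3* and *Psmb8*. The cause of the changes below was not tested.

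Over all genes, light in Nj pups gave 611 calls, against 1009 by DESeq2, 112 without *Ttr*-rich libraries (84 of them among the 611) and 152 (without untreated Nj pup 4) to 651 with 1 pup left out. Light in jj pups gave 25, against 271 by DESeq2, 3 with the compared groups alone, 0 without *Ttr*-rich libraries and 0 to 43 with 1 pup left out. Jaundice without light gave 0, against 1 by DESeq2 and 0 to 1 with 1 pup left out. Jaundice with light gave 0, against 2 by DESeq2 and 0 to 1 with 1 pup left out, and the interaction 0, against 0 to 1.

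Some genes that were not called changed sign, with the log2 values that follow. *Irf1* with light in jj pups was 0.00368 with DESeq2's size factors, 0.000723 at a mean count of at least 10 and 0.00109 with the compared groups alone. *Irf7* with light in Nj pups was -0.00107 without a filter, -0.000733 by DESeq2, -0.00514 with the compared groups alone and -0.109 without *Ttr*-rich libraries. Against J15 pups alone, *Nlrc5* was -0.0320, *Ifit1* -0.0503 and *Isg15* 0.0153 with light, *Tapbp* was -0.00976 for jaundice without light, and its interaction was 0.0891. Without *Ttr*-rich libraries, jaundice without light gave *Tap1* -0.00557, *Tapbp* -0.0403, *Psmb9* -0.0218, *Ifit2* 0.0386 and *Irf1* -0.0639, and jaundice with light gave *Tap1* -0.265 and *Tapbp* -0.279.

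With 1 pup left out, jaundice without light ran for *Tapbp* from -0.0568 to 0.190, *Psmb9* from -0.0594 to 0.122, *Ifit2* from -0.137 to 0.0238 and *Irf1* from -0.0995 to 0.155. Light in Nj pups ran for *Tap1* from -0.0322 to 0.115, *Calr* from -0.0659 to 0.00616, *Pdia3* from -0.00666 to 0.0618, *Nlrc5* from -0.0692 to 0.190, *Stat2* from -0.0610 to 0.00499, *Irf7* from -0.0637 to 0.186, *Ifit1* from -0.100 to 0.150 and *Isg15* from -0.487 to 0.0472. Light in jj pups ran for *Tap1* from -0.164 to 0.0230, *Tapbp* from -0.210 to 0.0320, *Psmb8* from -0.0851 to 0.221 and *Irf1* from -0.106 to 0.143. Jaundice with light ran for *Tap1* from -0.0112 to 0.138 and *Irf1* from -0.0951 to 0.0403, and the interaction for *Tapbp* from -0.106 to 0.139 and *Irf1* from -0.180 to 0.0732.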

Other observations

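Other arms of innate sensing gave few calls with light in Nj pups. Of 16 tested genes that sense foreign nucleic acid or relay that signal, none was called by edgeR's quasi-likelihood test, and DESeq2 called 1. An unadjusted p under 0.05 was found for 2 of the 16, beside 18.1% of all genes. The median log2 fold change was 0.05. The 2 were *Tlr7*, which encodes an endosomal RNA sensor, at 0.34 (adjusted p = 0.201, edgeR), and *Traf3*, which encodes an adaptor of interferon induction, at 0.15 (adjusted p = 0.0729, edgeR), both named after their values were seen. Of 8 tested genes of the class II pathway, which presents peptides taken up from outside the cell, 1 was called, *Ctss*, and 6 had a fold change above 0. Over all genes, 4.00% were called with light in Nj pups and 50.3% had a fold change above 0.

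Several interferon-stimulated genes outside the 9, also named after their values were seen, had larger fold changes than *B2m* with light in Nj pups and were not called. *Ifi47*, an interferon-inducible GTPase gene, had a log2 fold change of 0.67 (adjusted p = 0.0915, edgeR) in Nj pups and of 0.50 (adjusted p = 0.342, edgeR) in jj pups. *Mx2*, an antiviral GTPase gene, had 0.59 (adjusted p = 0.107, edgeR) and *Ccl5*, a chemokine gene, had 1.12 (adjusted p = 0.0963, edgeR) in Nj pups. For jaundice without light, *Ifi47*, *Mx2* and *Ccl5* had 0.30, 0.34 and 0.56, none called. Of the 54 tested, 35 had a fold change above 0 with light in Nj pups. Among those below 0 were *Pml* at -0.25, *Oasl2* and *Gbp2* at -0.23 and *Trim26* at -0.11 (unadjusted p = 0.0451, edgeR). With light in jj pups, 1 of the 54 had an unadjusted p under 0.05.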
